A study of Mus musculus with 112 samples.

Results

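Cytochrome P450 enzymes of families 1 to 4 were examined in intestinal stem cells (ISCs), progenitors and Paneth cells of young and aged mice. Rows of the gene table were taken whose symbol begins with Cyp, a family number from 1 to 4, a subfamily letter and a gene number, with pseudogenes left out, and which reached a mean of 1 CPM (counts scaled to a total of 1000000) over animals in at least 1 of the 3 cell populations. Of 32285 genes listed, 81 matched the pattern and 28 reached the level, while 29 of the 81 had no count in any library. The 28 genes comprised 14 of family 2, 4 of family 3, 10 of family 4 and 0 of family 1. A mean of 1 CPM or more was reached by 25 of them in progenitors, by 22 in ISCs and by 22 in Paneth cells, and by 18 in all 3 populations. The totals include mitochondrial genes, a median of 58.2% of counts in Paneth cells and 4.02% in progenitors, so the limit was stricter in Paneth cells. Cyp2u1, for example, had a mean of 0.902 CPM in Paneth cells, and 2.10 with mitochondrial genes left out of the total. The members were thus chosen by their measured levels (mean CPM per population), and these levels are given below as a description. Just inside the limit were Cyp2c70, at a mean of 1.00 CPM in its highest population, and Cyp4f17 at 1.11 CPM, and just outside were Cyp2c23 at 0.384 CPM and Cyp2d10 at 0.335 CPM. Cyp1a1 and Cyp1b1, which are classical targets of the aryl hydrocarbon receptor, held 11 counts and 1 count over all libraries and were not members.

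All mice were C57BL/6 animals carrying Lgr5-eGFP-IRES-CreERT2, a reporter allele that labels cells by the activity of the stem cell gene Lgr5, and all cells came from crypts of the proximal small intestine after the villi had been scraped off. ISCs were sorted as GFP-high, progenitors as GFP-medium or GFP-low, both Epcam-high and CD24-low, and Paneth cells as GFP-negative cells with high CD24, high Epcam and high side scatter, so the gates and not lineage define the populations. Young mice were 2 to 3 months old and aged mice 23 to 27 months old, with no treatment given in the labels. Aged females were 23 to 24 months old, and the animals of 26 and 27 months were all male. There were 23 ISC samples (11 young, 12 aged), 20 progenitor samples (10 young, 10 aged) and 24 Paneth samples (12 young, 12 aged), with 5 to 7 animals per age and sex. Samples came under 36 animal names, 23 of which contributed to at least 2 populations.

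P450 enzymes are haem proteins of the endoplasmic reticulum that insert 1 oxygen atom into a substrate, with electrons supplied by cytochrome P450 reductase (Por) and cytochrome b5. Families 1 to 3 oxidise mainly drugs, dietary compounds and steroids, and family 4 mainly hydroxylates fatty acids and eicosanoids at the chain end. In the small intestine they form part of the first-pass barrier and are best known from the enterocytes of the villus. Their genes lie in clusters of close paralogs and many respond to the nuclear receptors CAR (Nr1i3), PXR (Nr1i2) and PPARα (Ppara) or to the aryl hydrocarbon receptor (Ahr).

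The clusters were visible among the 28 genes, all annotated as protein-coding in GENCODE M21 (GRCm38, the build of the files). The 7 members of subfamily Cyp4f lay within 495 kb of chromosome 17 and the 5 of subfamily Cyp2c within 1180 kb of chromosome 19. Subfamily Cyp3a had 4 members on chromosome 5, and Cyp2d had 2 members on chromosome 15. The 28 genes occupied 8 chromosomes in all. The promoters of the 4 genes that differed with age below are printed here from RefSeq (GRCm38.p6), 250 bases before to 50 bases after the annotated start, 5′ to 3′ on the gene's strand. Cyp2c65 lies on the plus strand of chromosome 19 with its window at chr19:39060756-39061055, Cyp2d26 on the minus strand at chr15:82794196-82794495 and Cyp2b10 on the plus strand at chr7:25897408-25897707. Cyp4f14 lies on the minus strand and has 4 annotated starts, of which the window at chr17:32917307-32917606 is shown. Capitals mark matches on either strand to 5 short words, which were chosen with these windows in view.
Cyp2c65: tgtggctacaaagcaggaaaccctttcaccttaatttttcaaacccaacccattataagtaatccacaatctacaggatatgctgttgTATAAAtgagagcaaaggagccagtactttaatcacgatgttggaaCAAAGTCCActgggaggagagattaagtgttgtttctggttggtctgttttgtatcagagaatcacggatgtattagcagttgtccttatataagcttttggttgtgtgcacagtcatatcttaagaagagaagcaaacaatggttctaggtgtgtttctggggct
Cyp2d26: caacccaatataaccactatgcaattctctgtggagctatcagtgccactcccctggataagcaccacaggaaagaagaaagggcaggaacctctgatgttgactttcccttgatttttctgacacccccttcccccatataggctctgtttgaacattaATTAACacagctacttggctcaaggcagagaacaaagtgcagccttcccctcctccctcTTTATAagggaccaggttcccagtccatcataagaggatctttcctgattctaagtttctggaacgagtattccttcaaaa
Cyp2b10: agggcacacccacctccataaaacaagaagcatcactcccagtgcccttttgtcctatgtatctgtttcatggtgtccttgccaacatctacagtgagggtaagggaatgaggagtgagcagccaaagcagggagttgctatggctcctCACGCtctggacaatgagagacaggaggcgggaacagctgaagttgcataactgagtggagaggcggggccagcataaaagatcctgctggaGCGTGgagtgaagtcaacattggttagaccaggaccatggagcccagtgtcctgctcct
Cyp4f14: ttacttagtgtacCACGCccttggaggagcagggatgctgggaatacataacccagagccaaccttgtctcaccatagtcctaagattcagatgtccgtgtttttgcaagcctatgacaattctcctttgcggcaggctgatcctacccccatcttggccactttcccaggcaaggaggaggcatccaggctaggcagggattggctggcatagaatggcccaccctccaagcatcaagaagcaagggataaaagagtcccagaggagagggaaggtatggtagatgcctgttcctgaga

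Promoters of 24 of the 28 genes were in the RefSeq table, in 29 windows of 300 bases among 32851 for all genes. The word CAAAGTCCA, which resembles the element bound by HNF4 factors, occurred in 4 of the 29 windows, those of Cyp2c65, Cyp2c68, Cyp2c70 and Cyp3a11, and in 0.475% of all windows. In the Cyp2c65 window printed above it begins at base -116. The word GTTAAT, a half-site of HNF1, occurred in 4 of the 29 windows, including those of Cyp2d26 and of another start of Cyp4f14, against 7.10% of all windows. The TATA box word TATAAA was present, on either strand, in 7 of the 29 windows against 13.6% of all windows. The match began at -29 in Cyp2c55 and Cyp2c70 and at -31 in Cyp2d26 and Cyp2e1. In Cyp2c65, Cyp2c66 and Cyp3a11 it began farther upstream, at -162, -150 and -234. AGATAA, the GATA word, was present in 6 against 11.2%, and GCGTG, the core of the aryl hydrocarbon receptor element, in 8 against 32.4%. Cyp2b10 carried GCGTG at -9 and, on the other strand, at -101. A match is a description of the sequence and not a binding site.

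Each ISC sample held 2.18 to 5.59 M counts (M, counts divided by 1000000), each progenitor sample 2.48 to 7.57 M and each Paneth sample, summed over 2 or 3 technical libraries of the animal, 2.82 to 11.8 M. Mitochondrial genes took a median of 5.88% of counts in ISCs, 58.2% in Paneth cells and 4.02% in progenitors. The 28 genes held a median of 0.135% of the counts of nuclear genes in progenitors, 0.0821% in Paneth cells and 0.0678% in ISCs. Levels below are CPM after TMM scaling over all 67 samples, which brings the 3 populations to a common scale. The summed level of 8 ISC markers had a median of 9065 in young and 10088 in aged ISCs, against 1377 and 1298 in progenitors and 2677 and 3038 in Paneth cells. The 8 measured Paneth markers summed to medians of 148209 and 202885 in young and aged Paneth cells and to medians of at most 1396 in the other groups. Enterocyte markers summed to medians of 710 and 730 in ISCs, 1942 and 2146 in progenitors and 2318 and 2190 in Paneth cells. Enteroendocrine markers summed to medians of 1404 and 2229 in young and aged Paneth samples, against 6.91 to 553 in the other groups, and tuft markers to 691 and 561, against 3.71 to 13.3. The part of these cells in the levels of the Paneth samples was not tested. Goblet markers summed to medians of 20025 and 19363 in progenitors, above the enterocyte sums of the same samples. Immune markers summed to 277.5 in aged female ISC sample 2 and to at most 6.02 in the young ISC samples. No label or file gives a batch.

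Across populations, the mean level after TMM scaling was highest in progenitors for 13 genes, in Paneth cells for 9 and in ISCs for 6. No such split was made for all genes. Some margins were small, such as 1.03-fold for Cyp2j9 and 1.08-fold for Cyp4f16. The split also depends on the scaling. Cyp4f13 had means of 51.1 CPM in ISCs and 23.5 CPM in Paneth cells before TMM scaling, and 32.3 and 48.2 CPM after it. Counts were made at the 3′ end of each transcript, so levels were not divided by length and are compared here between populations and not between genes.

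**Figure D1:**
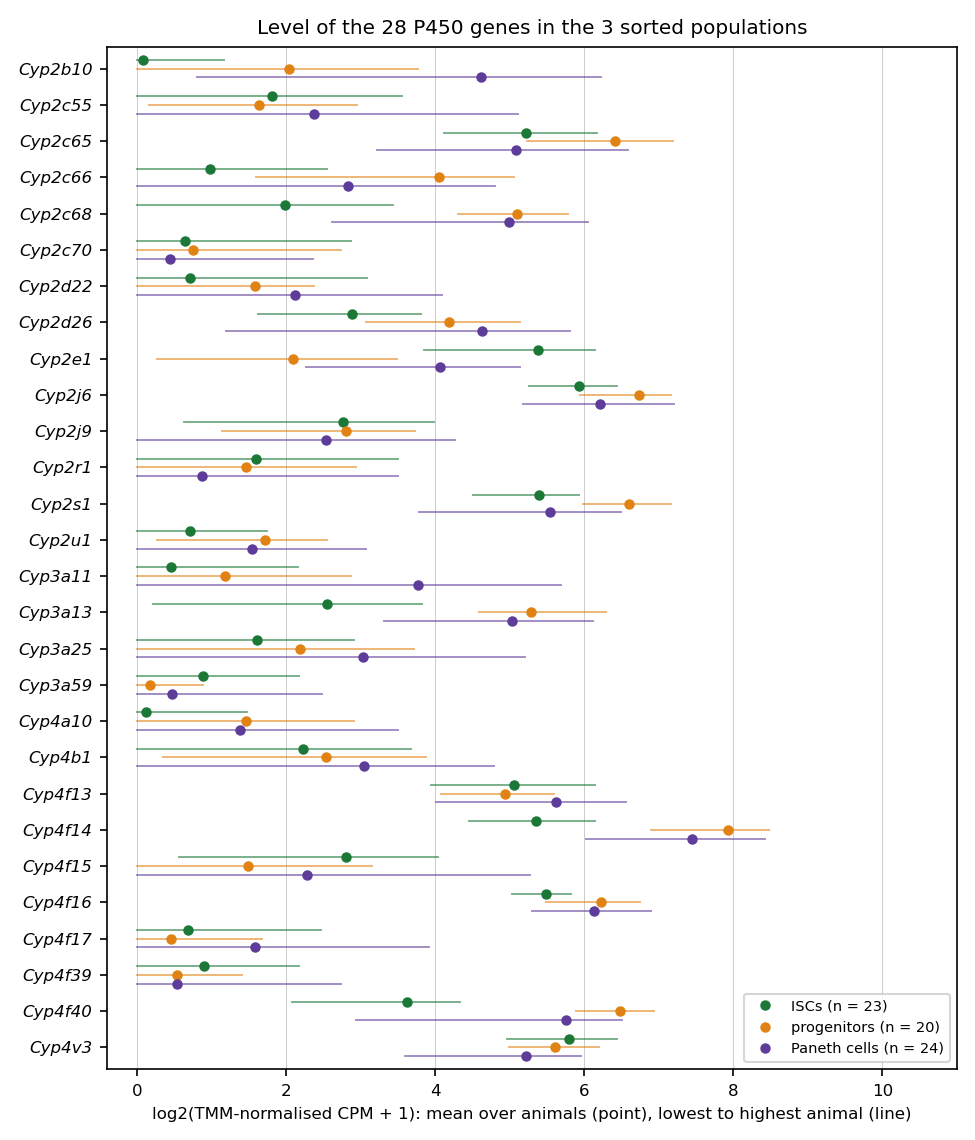
Level of each of the 28 P450 genes in ISCs, progenitors and Paneth cells, as log2 of TMM-normalised CPM plus 1; points are means over 23, 20 and 24 animals and lines run from the lowest to the highest animal. Cyp4f14 lies farthest right in progenitors, Cyp2e1 is highest in ISCs, and Cyp2b10 and Cyp3a11 are highest in Paneth cells.

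Differences between populations were tested only for genes at 1 CPM or more in both before TMM scaling, since a gene below 1 CPM in a population had to be lower there. Progenitors exceeded ISCs in 11 of 20 such genes and were lower in 2 (edgeR quasi-likelihood test with Benjamini-Hochberg adjustment over all genes). Of the 11788 genes at 1 CPM or more in both populations, 19.9% were called higher and 18.1% lower in progenitors. The median difference over the 20 genes was 0.78 on the log2 scale, against -0.04 over all 13287 genes tested. In bulk samples, fewer cells of a type and less RNA per cell cannot be told apart.

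Of the 7 members of subfamily Cyp4f, fatty acid and eicosanoid hydroxylases, 5 could be compared, and 3 of these were higher in progenitors, 1 was lower and 1 did not pass. Over all genes at 1 CPM or more in both populations the shares were 19.9% higher and 18.1% lower. Cyp4f14, which hydroxylates leukotriene B4 and vitamin E, ranged from 20.9 to 69.7 CPM in ISCs with a median of 41.3, and from 119 to 355 CPM in progenitors with a median of 250. All 20 progenitor samples lay above all 23 ISC samples, and the difference was 2.60 ± 0.14 on the log2 scale (6.06-fold, edgeR adjusted p = 3.02e-26). Cyp4f40 rose from 11.3 ± 4.29 CPM (SD, n = 23) to 87.8 ± 16.6 CPM (SD, n = 20), a difference of 2.93 ± 0.18, again with no overlap. Cyp4f16 rose by 0.74 ± 0.10, from 43.6 ± 7.20 to 74.0 ± 17.2 CPM. Cyp4f13 did not differ past the threshold (32.3 ± 12.1 and 29.5 ± 9.06 CPM, edgeR adjusted p = 0.58).

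Cyp4f15 went the other way. It had a median of 5.40 CPM in ISCs and 0.739 CPM in progenitors, with 7 of 20 progenitor samples below the lowest ISC sample, and it was lower in progenitors by 2.16 ± 0.52 on the log2 scale (edgeR adjusted p = 5.02e-04). In aged animals alone this difference was -1.10 and did not pass (edgeR adjusted p = 0.330). Members of the chromosome 17 cluster thus had opposite directions.

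In the drug-metabolising subfamilies Cyp2c, Cyp2d and Cyp3a, 5 of the 7 genes that could be compared were higher in progenitors and 0 lower. Of all genes at 1 CPM or more in both populations, 19.9% were called higher and 18.1% lower, and genes of a cluster are not independent. Cyp2c55 (-0.18 ± 0.52, edgeR adjusted p = 0.822) and Cyp3a25 (0.61 ± 0.48, edgeR adjusted p = 0.333) did not pass. Cyp3a13, a CYP3A enzyme of the intestine, rose from 4.83 ± 3.49 CPM (SD, n = 23) in ISCs to 38.1 ± 11.5 CPM (SD, n = 20) in progenitors, by 3.02 ± 0.25 on the log2 scale. Cyp2c68 rose from 2.97 ± 2.38 to 33.3 ± 9.97 CPM, by 3.53 ± 0.29, and Cyp2c66 from 0.977 ± 1.52 to 15.6 ± 8.35 CPM, by 4.12 ± 0.61. Cyp2c65, which oxidises arachidonic acid, rose from 36.1 ± 15.0 to 84.5 ± 30.8 CPM, by 1.31 ± 0.16, and 14 of 20 progenitor samples lay above the highest ISC sample. Cyp2d26 rose by 1.39 ± 0.23, from 6.39 ± 2.73 to 17.3 ± 7.73 CPM. For Cyp3a13 and Cyp2c68 all 20 progenitor samples lay above all ISC samples, and for Cyp2c66 19 of 20 did. Of the 50-base words in the last 400 bases of transcripts, 51.6% of those of Cyp2c68 also occur in Cyp2c40, Cyp2c67 or Cyp2c69, and 11.7% of those of Cyp2c66 in Cyp2c65, so reads of these genes could have been split or dropped in counting.

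Cyp2s1, an epithelial P450 induced through the aryl hydrocarbon receptor, and Cyp2j6, of a subfamily that makes epoxides of fatty acids, were abundant in all 3 populations. Cyp2s1 rose from 41.2 ± 9.16 CPM in ISCs to 96.1 ± 21.5 CPM in progenitors, by 1.20 ± 0.13 with no overlap between samples. Cyp2j6 rose from 60.0 ± 12.6 to 105 ± 21.3 CPM, by 0.81 ± 0.12. Cyp2u1, a fatty acid hydroxylase near the limit, rose from 0.644 ± 0.710 to 2.30 ± 1.32 CPM, by 1.91 ± 0.52, but its call was lost in young animals alone (log2 2.07, edgeR adjusted p = 0.0547) and with the animal as a replicate block (edgeR adjusted p = 0.0611).

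Cyp2e1, which oxidises ethanol and small solvents, had the largest difference in favour of ISCs. Its level ran from 13.5 to 69.5 CPM in ISCs with a median of 36.9, from 0.201 to 10.3 CPM in progenitors with a median of 3.02, and from 3.80 to 34.2 CPM in Paneth cells with a median of 16.0. Every progenitor sample lay below every ISC sample, and the difference was -3.62 ± 0.29 on the log2 scale (12.3-fold, edgeR adjusted p = 3.43e-18). Paneth cells lay between, 1.42 ± 0.25 below ISCs and 2.20 ± 0.28 above progenitors (edgeR adjusted p = 1.75e-06 and 4.55e-10), with 10 of 24 Paneth samples below the lowest ISC sample. Of the 50-base words in the last 400 bases of its transcripts, 14.4% also occur in other genes. The comparisons of populations without each sample in turn gave -3.80 to -3.54 for Cyp2e1 in progenitors against ISCs.

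**Figure D2:**
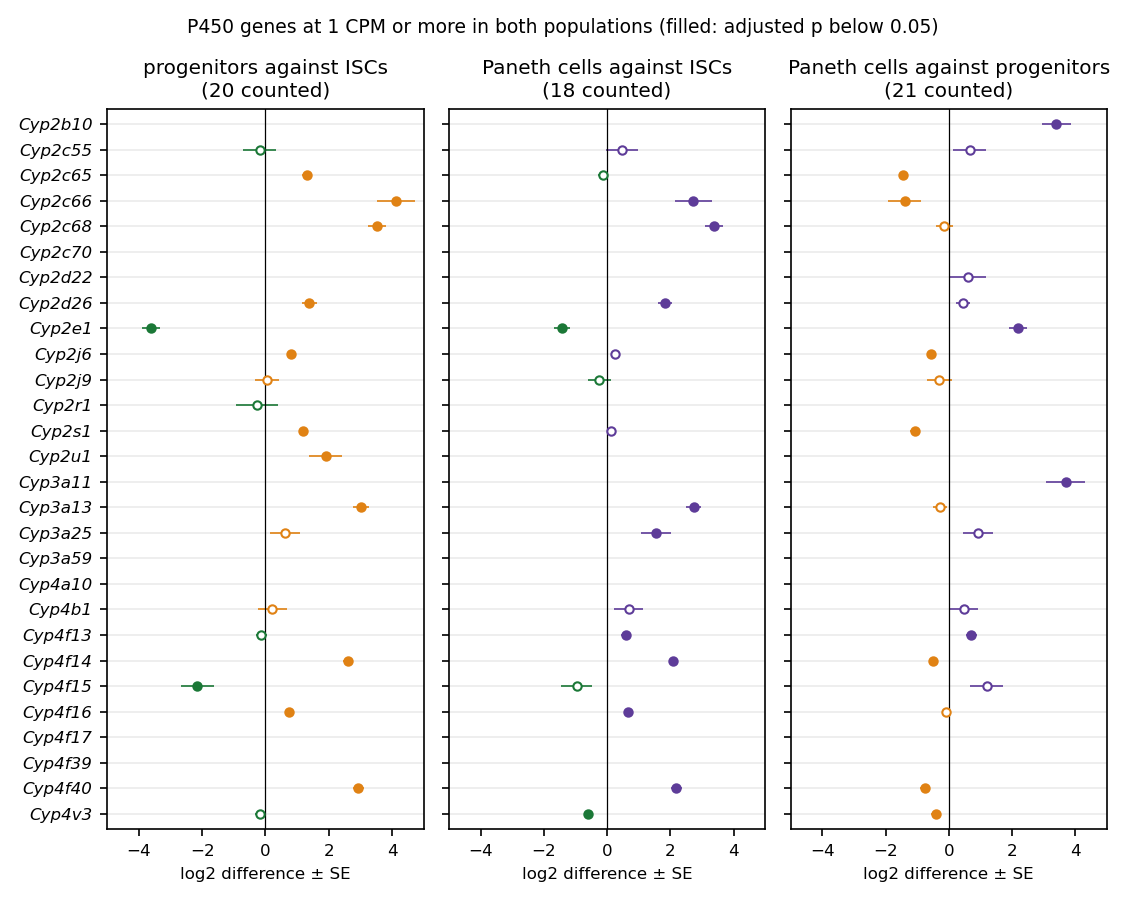
Differences between populations as log2 ± SE for the P450 genes at 1 CPM or more in both populations compared (20, 18 and 21 genes); filled points have an edgeR adjusted p below 0.05 and the colour is that of the higher population (green ISCs, orange progenitors, purple Paneth cells). Cyp2e1 is the farthest left against ISCs in the first panel, and in the Paneth panels the directions of Cyp4f13, Cyp4f16 and Cyp3a25 reverse where library totals are left unscaled.

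Paneth cells exceeded ISCs in 9 of 18 genes and were lower in 2, Cyp2e1 and Cyp4v3, against 23.2% of genes called higher and 20.6% called lower among the 11016 at 1 CPM or more in both. Without scaling factors 4 were called higher and 11 lower, and of all 13287 genes tested 632 were called higher and 11419 lower. Cyp4f14 was 2.10 ± 0.14 higher in Paneth cells than in ISCs on the log2 scale, Cyp4f40 2.19 ± 0.17, Cyp3a13 2.74 ± 0.24, Cyp2c68 3.39 ± 0.28 and Cyp2c66 2.72 ± 0.58. Without scaling factors Cyp2c66 (0.97, edgeR adjusted p = 0.0949) and Cyp2d26 (0.10, edgeR adjusted p = 0.678) lost their calls, and in aged animals alone Cyp4f13 (0.58, edgeR adjusted p = 0.0583) and Cyp3a25 (0.96, edgeR adjusted p = 0.313) did. Cyp2c65 did not differ past the threshold between Paneth cells and ISCs (33.0 ± 19.9 and 36.1 ± 15.0 CPM, edgeR adjusted p = 0.538). Cyp4v3, a fatty acid hydroxylase, had 54.5 ± 15.2 CPM in ISCs and 36.3 ± 15.8 CPM in Paneth cells, and was 0.60 ± 0.14 lower in Paneth cells, a call lost in young animals alone (-0.36, edgeR adjusted p = 0.195).

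Against progenitors, Paneth cells were higher in 4 of 21 genes and lower in 7, with 21.4% and 20.3% of the 11083 genes at 1 CPM or more in both called in these directions. The 4 were Cyp2b10, Cyp3a11, Cyp2e1 and Cyp4f13. With DESeq2 size factors the counts were 6 higher and 6 lower, and with unscaled totals 3 higher and 14 lower. Of all 13287 genes tested, 3278 were higher and 1982 lower with DESeq2 size factors, and 433 and 10983 with unscaled totals. Cyp2b10, the main CAR target among mouse P450 genes, ranged from 0.739 to 73.6 CPM in Paneth cells with a median of 17.3, and from 0 to 12.6 CPM in progenitors with a median of 2.12. It was 3.40 ± 0.45 higher in Paneth cells (10.6-fold, edgeR adjusted p = 6.80e-09), with 16 of 24 Paneth samples above the highest progenitor sample. In ISCs it had no count in 22 of 23 samples, and at the depths of the ISC samples a count of 0 (an upper limit of 3 counts) allows 0.537 to 1.38 CPM before scaling. Cyp3a11, the principal drug-metabolising CYP3A of the mouse and a PXR target, ranged from 0 to 50.7 CPM in Paneth cells with a median of 7.59, and from 0 to 6.29 CPM in progenitors with a median of 0.297. It was 3.69 ± 0.62 higher in Paneth cells (edgeR adjusted p = 9.57e-07), and its mean in ISCs was 0.378 CPM.

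The 7 lower genes were Cyp2c65, Cyp2c66, Cyp2s1, Cyp4f40, Cyp2j6, Cyp4f14 and Cyp4v3. Cyp2c65 was 1.43 ± 0.16 lower in Paneth cells than in progenitors and Cyp2s1 1.08 ± 0.13 lower on the log2 scale, with 17 and 20 of 24 Paneth samples below the lowest progenitor sample. In young animals alone the calls of Cyp4f14 (-0.15, edgeR adjusted p = 0.568), Cyp4v3 (-0.06, edgeR adjusted p = 0.872) and Cyp2c66 (-1.17, edgeR adjusted p = 0.274) were lost. In aged animals alone those of Cyp2c66 (-1.57, edgeR adjusted p = 0.0598) and of Cyp4f13, 1 of the 4 higher genes (0.57, edgeR adjusted p = 0.0852), were lost. DESeq2 called neither Cyp2c66 (adjusted p = 0.0577) nor Cyp4v3 (adjusted p = 0.0661). Cyp4v3 also lost its call with DESeq2 size factors (edgeR adjusted p = 0.0708) and without aged female progenitor sample 5 (edgeR adjusted p = 0.0561).

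The scaling of library totals touches all Paneth comparisons. Without scaling factors, the median difference of all genes moved to -1.75 on the log2 scale in Paneth cells against ISCs and to -1.57 against progenitors, and 6 of 18 and 3 of 21 P450 genes were then above 0. Cyp4f13 reversed in both (-1.12 and -0.85), and Cyp4f16 (-1.07) and Cyp3a25 (-0.18) reversed against ISCs. The mitochondrial share given above differs between the populations in the same comparisons, and its part in the shift was not tested. In progenitors against ISCs the shift was -0.18 and the calls numbered 11 higher and 2 lower, as with scaling.

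Genes below 1 CPM in a population were left out of its comparisons, which removed 8 of the 28 genes from progenitors against ISCs, 10 from Paneth cells against ISCs and 7 from Paneth cells against progenitors. Cyp4a10, a PPARα target that hydroxylates fatty acids, had means of 0.0856, 1.77 and 1.61 CPM in ISCs, progenitors and Paneth cells. Cyp2d22 had means of 0.634, 1.98 and 3.36 CPM in the same order, and in Paneth cells against progenitors, where it could be compared, it did not pass (edgeR adjusted p = 0.424). Cyp2r1, a vitamin D 25-hydroxylase, had means of 2.02, 1.76 and 0.824 CPM and did not pass in progenitors against ISCs (edgeR adjusted p = 0.789). Cyp3a59, Cyp4f39, Cyp4f17 and Cyp2c70, an enzyme of muricholic acid synthesis, stayed at a mean of 2.00 CPM or less in every population. Cyp4b1 was present in all 3 populations at 3.70 ± 3.62, 4.80 ± 3.60 and 7.27 ± 8.12 CPM and did not differ past the threshold in any comparison of populations.

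Of 24 P450 genes tested for age in progenitors, 3 (Cyp4f14, Cyp2d26 and Cyp2b10) were higher in aged animals and 0 lower, against 0.466% of the 11812 genes tested called higher and 0.262% called lower (edgeR quasi-likelihood test with Benjamini-Hochberg adjustment over all genes). The log2 difference was above 0 in 22 of 24, with a median of 0.46, whereas it was above 0 in 50.8% of all genes, with a median of 0.00. An unadjusted p below 0.05 was reached by 11 of the 24, all higher in aged animals, and by 9.06% of all genes tested. Genes of a cluster and genes measured in the same cells are not independent, and 4 members with too few counts were not tested.

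**Figure D3:**
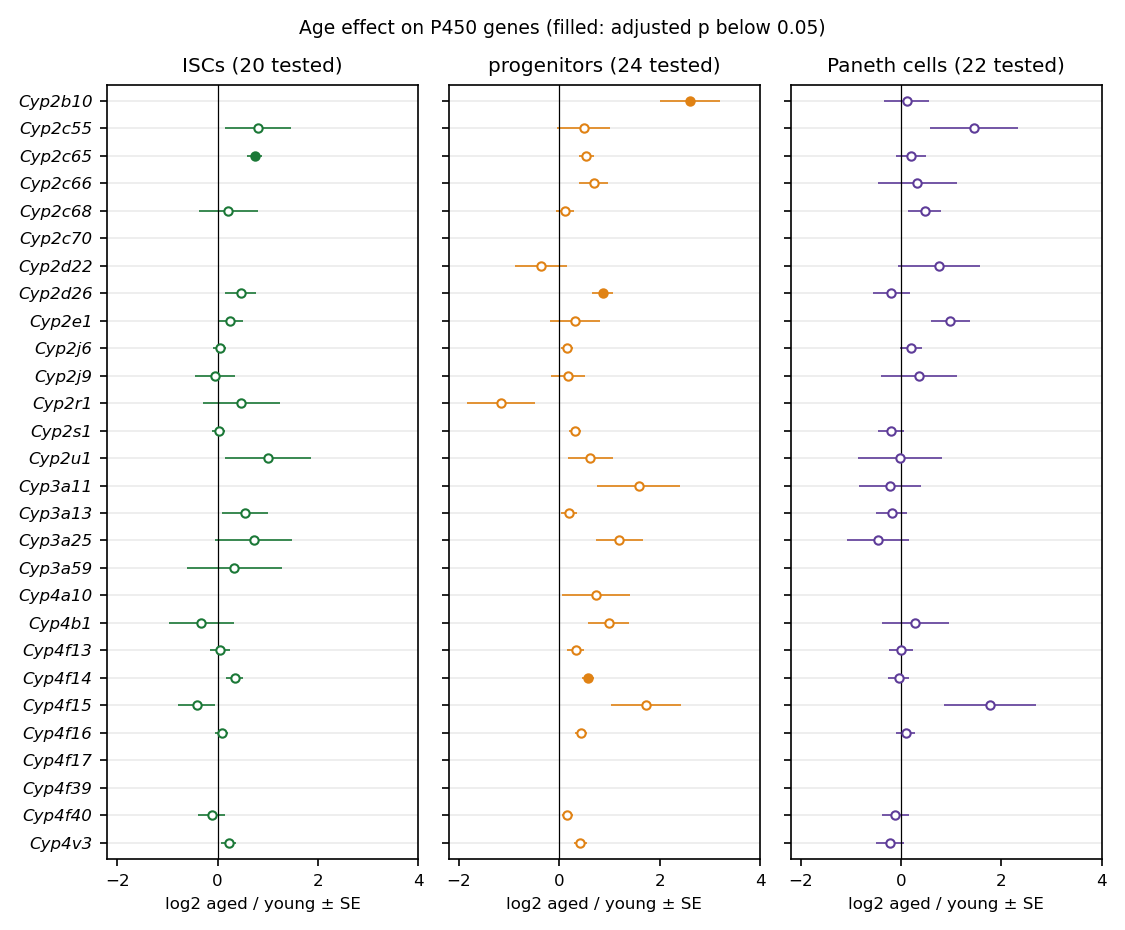
Age effect (log2 aged over young ± SE) of each P450 gene tested in ISCs (20 genes), progenitors (24) and Paneth cells (22); filled points have an edgeR adjusted p below 0.05. In progenitors 22 of 24 points lie to the right of 0 and 3 are filled, in ISCs 1 is filled, and in Paneth cells none is.

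Cyp4f14, the leukotriene B4 and vitamin E hydroxylase, was 1 of the 3. Its level ranged from 119 to 264 CPM in young progenitors with a median of 200, and from 245 to 355 CPM in aged progenitors with a median of 281. All 10 aged samples lay above the young median and 9 of 10 young samples lay below the lowest aged sample, so the groups overlapped by young male sample 2 alone. The difference was 0.57 ± 0.11 on the log2 scale (1.49-fold, edgeR adjusted p = 0.00394), and 0.51 to 0.65 with each sample left out in turn, the adjusted p then being at most 0.0134. Without the animals of 26 and 27 months it was 0.50 and did not pass (edgeR adjusted p = 0.107). In progenitors these animals are samples 1, 2 and 3 of the 5 aged males, so that fit also holds fewer aged males. In all samples the difference of Cyp4f14 had the same sign in both sexes. In males alone it was 0.64 and in females alone 0.50, neither past the threshold in these smaller sets.

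Cyp2d26 ranged from 7.41 to 21.3 CPM in young progenitors with a median of 11.7, and from 12.9 to 34.1 CPM in aged progenitors with a median of 21.0. The groups overlapped, with 5 of 10 aged samples above the highest young sample and all 10 above the young median. It rose by 0.87 ± 0.21 on the log2 scale (1.82-fold, edgeR adjusted p = 0.0399). This call was near the threshold and was lost in 12 of the 20 fits that left out 1 sample, with an adjusted p of up to 0.113 without aged male sample 2, while the difference stayed between 0.76 and 1.02. It was also lost without scaling factors (edgeR adjusted p = 0.0601), with limma-voom (adjusted p = 0.0801) and without the oldest animals, of 26 and 27 months (edgeR adjusted p = 0.248). Of the 50-base words in the last 400 bases of its transcripts, 33.0% also occur in other genes, chiefly in Cyp2d40 and other genes of the subfamily, so some of its reads could have been counted for a paralog or dropped.

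Cyp2b10 was low in progenitors and rose the most. It ranged from 0 to 2.83 CPM in young progenitors with a median of 0.368, and from 0.265 to 12.6 CPM in aged progenitors with a median of 5.88, from 18 counts or fewer per young sample and up to 89 counts per aged sample. Of the aged samples, 7 of 10 lay above the highest young sample. The difference was 2.60 ± 0.60 on the log2 scale (edgeR adjusted p = 0.0251), lost in 6 of 20 fits without 1 sample, with the highest adjusted p of 0.0602 without aged male sample 3. It was also lost with limma-voom (adjusted p = 0.0836), with the replicate block (edgeR adjusted p = 0.0689) and without the animals of 26 and 27 months (edgeR adjusted p = 0.226). In males alone the difference was 2.83 and did not pass (edgeR adjusted p = 0.105). In females alone the gene had too few counts to be tested. In Paneth cells, where the gene is more abundant, the age difference was 0.11 ± 0.45, from 22.5 ± 17.1 CPM (SD, n = 12) in young to 24.7 ± 22.0 CPM (SD, n = 12) in aged animals.

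In ISCs 1 of 20 genes tested, Cyp2c65, was higher in aged animals and 0 lower, against 0.284% of the 11958 genes tested called higher and 0.0753% called lower. An unadjusted p below 0.05 was reached by 1 of the 20 and by 8.87% of all genes. The log2 difference was above 0 in 16 of 20 genes with a median of 0.24, and in 49.2% of all genes with a median of -0.01. Cyp2c65 ranged from 16.3 to 37.0 CPM in young ISCs with a median of 25.2, and from 23.3 to 70.9 CPM in aged ISCs with a median of 42.2. Of the aged samples, 9 of 12 lay above the highest young sample, and 3 of 11 young samples lay below the lowest aged one. The difference was 0.74 ± 0.15 on the log2 scale (1.67-fold, edgeR adjusted p = 0.0126), and 0.68 to 0.85 with each sample left out, all past the threshold. Of the 50-base words in the last 400 bases of its transcripts, 2.85% also occur in another gene, Cyp2c66.

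**Figure D4:**
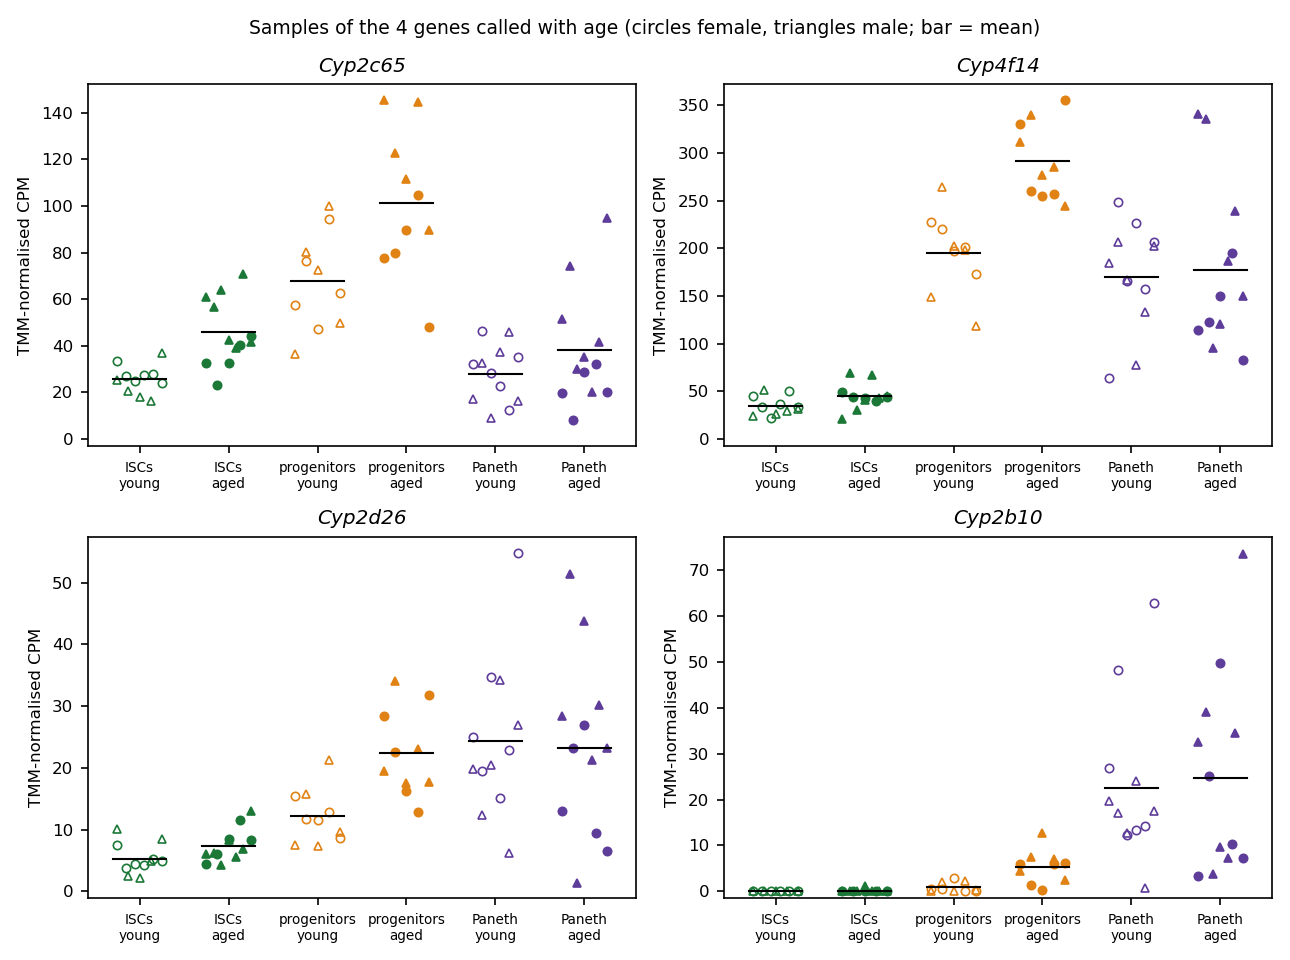
TMM-normalised CPM of Cyp2c65, Cyp4f14, Cyp2d26 and Cyp2b10 in every sample, by population and age; circles are females, triangles males, open symbols young, filled symbols aged, and bars are group means. Aged progenitors lie mostly above young ones in all 4 panels, and aged ISCs mostly above young ISCs for Cyp2c65.

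The estimated age difference of Cyp2c65 in ISCs was larger in males. In males alone it was 1.18 (edgeR adjusted p = 0.0302) and in females alone 0.30 (edgeR adjusted p = 0.725). The aged males of this population were 24 to 27 months old and the aged females 23 to 24. The part of age in months in this was not tested. The test of the difference between the sexes gave 0.89 ± 0.31 with an unadjusted p of 0.00687, which did not pass after adjustment (edgeR adjusted p = 0.57). The call in ISCs was also lost without the animals of 26 and 27 months (0.67, edgeR adjusted p = 0.0938). In ISCs these are samples 1, 2 and 3 of the 7 aged males. In progenitors Cyp2c65 had 67.7 ± 20.7 CPM (SD, n = 10) in young and 101 ± 30.7 CPM (SD, n = 10) in aged animals, a difference of 0.54 ± 0.15 that did not pass (edgeR adjusted p = 0.120). In Paneth cells it had 28.0 ± 12.5 and 38.0 ± 24.9 CPM (SD, n = 12 each), a difference of 0.21 ± 0.30 (edgeR adjusted p = 0.951) with the sign reversed in females alone (-0.46).

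Among the other genes of progenitors, Cyp4f16 had a difference of 0.44 ± 0.12 (edgeR adjusted p = 0.0879), with 8 of 10 aged samples above the highest young one, and Cyp4v3 0.42 ± 0.13 (edgeR adjusted p = 0.184). Cyp3a25, whose transcript end shares 14.5% of its words with other genes, had 1.20 ± 0.46 (edgeR adjusted p = 0.360), Cyp2c66 0.69 ± 0.29 (edgeR adjusted p = 0.428), Cyp4b1 0.98 ± 0.41 (edgeR adjusted p = 0.423) and Cyp3a11 1.58 ± 0.83 (edgeR adjusted p = 0.609). Cyp3a13 differed by 0.19 ± 0.16 (edgeR adjusted p = 0.792), and Cyp2r1 had the lowest value, -1.16 ± 0.68 (edgeR adjusted p = 0.681). All 5 Cyp4f genes tested in progenitors were above 0, with a median of 0.44, and all 4 Cyp2c genes, with a median of 0.51. These are counts of directions in the same 20 samples and not separate tests.

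In Paneth cells 0 of 22 genes tested passed with age (edgeR), and 1, Cyp2e1, had an unadjusted p below 0.05, against 0.0686% of the 11663 genes called in either direction and 6.83% with an unadjusted p below 0.05. Limma-voom and DESeq2 also called 0. The log2 difference was above 0 in 13 of 22, with a median of 0.11, and in 50.8% of all genes, with a median of 0.01. Without scaling factors the median of all genes moved to 0.23 and 18 of 22 P450 genes were above 0. Cyp2e1 ranged from 3.80 to 16.8 CPM in young Paneth cells with a median of 9.22, and from 4.66 to 34.2 CPM in aged Paneth cells with a median of 23.3. Although 8 of 12 aged samples lay above the highest young sample, the difference of 0.99 ± 0.39 did not pass (edgeR adjusted p = 0.551). Cyp4f14 had 170 ± 56.0 CPM (SD, n = 12) in young and 178 ± 87.1 CPM (SD, n = 12) in aged Paneth cells.

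The age effects themselves were not shown to differ between populations. In the edgeR tests of that difference 0 of the 28 genes passed in any of the 3 comparisons of populations. In the order progenitors against ISCs, Paneth cells against ISCs and Paneth cells against progenitors, 0.00753%, 0.0376% and 0% of all 13287 genes were called. An unadjusted p below 0.05 was reached by 1, 3 and 5 of the 28 and by 290, 1184 and 966 of all genes. Some of the 28 had too few counts in 1 population for the test to decide. For progenitors against ISCs the SE was 3698 for Cyp2b10 and 4743 for Cyp4a10, and for Paneth cells against progenitors 10723 for Cyp2c70. Only 19 members had enough counts to be tested for age in both ISCs and progenitors. For Paneth cells against progenitors, the difference of the age effects was -0.61 ± 0.26 for Cyp4f14 (edgeR adjusted p = 0.611), -1.04 ± 0.44 for Cyp2d26 (edgeR adjusted p = 0.582) and -2.47 ± 0.84 for Cyp2b10 (edgeR adjusted p = 0.361). For Cyp2c65, progenitors against ISCs gave -0.21 ± 0.31 (edgeR adjusted p = 1.00).

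Among markers of other cell types, 2 enteroendocrine genes were called with age in the same progenitor samples. The summed level of 10 enteroendocrine markers ranged from 82.3 to 326 CPM in young and from 241 to 1085 CPM in aged progenitors, with medians of 235 and 553, and 2 of 9 tested, Sct and Tac1, were called higher. The 14 enterocyte markers summed to 1332 to 2195 CPM in young and 1489 to 3048 CPM in aged progenitors, with 0 of 14 called and a median log2 difference of 0.24. The highest enterocyte sum was in aged male sample 2, which was also the highest sample for Cyp2d26, while Cyp4f14 was highest in aged female sample 5 and Cyp2b10 in aged male sample 3. The 8 goblet markers had 0 called and a median difference of 0.15. The 10 stromal and endothelial markers summed to medians of 10.7 and 23.5 CPM in young and aged progenitors, with 0 of 1 called. Nearly all of this sum was Vim, at a mean of 19.6 CPM over the progenitor samples. Each other marker of the list had a mean of 0.0858 CPM or less, with Cdh5, Kdr, Lum and Pdgfra at 0 in all samples. In ISCs, enterocyte markers summed to 602 to 811 CPM in young and 623 to 932 CPM in aged animals, with 0 of 12 called and a median difference of 0.08. Enteroendocrine markers summed to medians of 6.91 and 18.7 CPM in young and aged ISCs (0 of 4 called, median difference 1.13), and tuft markers to 3.71 and 7.76 CPM (0 of 2 called, median difference 0.42). The part of these in the age differences of P450 genes was not tested.

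Sex made no difference past the threshold. Between males and females, 0 of 20 P450 genes in ISCs, 0 of 24 in progenitors and 0 of 22 in Paneth cells passed (edgeR). Of all genes, 0.0753%, 0.135% and 0.0257% were called. Among the 11958, 11812 and 11663 genes tested, 867, 934 and 540 had an unadjusted p below 0.05. Of the P450 genes 0, 2 and 1 did. The 2 in progenitors were Cyp3a11, 2.00 ± 0.83 higher in males (edgeR adjusted p = 0.529), and Cyp4f13, with a log2 male over female of -0.38 ± 0.17 (edgeR adjusted p = 0.569). The test of age by sex called 0 of the P450 genes and 0% of all genes in each population (edgeR). An unadjusted p below 0.05 was reached by 2, 0 and 3 of the P450 genes and by 835, 731 and 622 of all genes. The estimate was the male minus the female age difference on the log2 scale. It was above 0 in 10 of 20 P450 genes in ISCs, 18 of 24 in progenitors and 20 of 22 in Paneth cells. The medians were 0.02, 0.38 and 0.62, and 50.9%, 50.8% and 51.6% of all genes were above 0. These are counts of directions in the same samples and not separate tests.

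Of 6 electron donors of P450 enzymes tested, 5 were higher in progenitors than in ISCs and 0 lower, against 20.1% of all 13287 genes called higher and 18.4% called lower. Por, the reductase that serves all these enzymes, rose from 46.7 ± 13.5 CPM (SD, n = 23) to 71.7 ± 13.8 CPM (SD, n = 20), by 0.63 ± 0.13 on the log2 scale, and Cyb5r3, a cytochrome b5 reductase, from 91.6 ± 19.4 to 213 ± 49.5 CPM, by 1.22 ± 0.09. With age 1 of 6 donors passed in progenitors, where 0.466% of all genes were called higher. This was Cyb5r3, which rose from 178 ± 24.7 CPM (SD, n = 10) to 249 ± 41.8 CPM (SD, n = 10), by 0.47 ± 0.10 (edgeR adjusted p = 0.00829), and 0 of 6 in ISCs and in Paneth cells. Por had 65.8 ± 8.81 and 77.7 ± 15.7 CPM in young and aged progenitors and did not pass (0.23 ± 0.12, edgeR adjusted p = 0.602).

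The regulators of P450 genes did not pass in any age comparison (0 of 23 tested in ISCs, 0 of 22 in progenitors and 0 of 21 in Paneth cells, edgeR). Between populations, 5 of 24 were higher and 7 lower in progenitors than in ISCs, against 20.1% and 18.4% of all genes called in these directions. Nr1i3, the receptor CAR, rose by 1.08 ± 0.16, from 16.1 ± 4.83 CPM in ISCs to 34.5 ± 9.61 CPM in progenitors, and was 0.94 ± 0.16 higher in Paneth cells than in ISCs. Nfe2l2 rose by 0.86 ± 0.10 and Vdr, the vitamin D receptor, fell by 0.77 on the log2 scale in progenitors. Nr1i2, the receptor PXR, had 30.8 ± 7.90, 29.8 ± 8.66 and 35.0 ± 15.2 CPM in ISCs, progenitors and Paneth cells and was called in no comparison of populations, and Hnf4a was 0.28 ± 0.06 lower in Paneth cells than in ISCs. Ahr had 6.52 ± 3.70, 7.05 ± 2.62 and 5.47 ± 5.82 CPM.

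The remaining lists had 0 genes called with age in any population: aryl hydrocarbon receptor targets outside the P450 families (4 tested in each), epoxide hydrolases (2 in each), haem synthesis and turnover (11 in each), eicosanoid enzymes (7 in Paneth cells, 5 in ISCs and 4 in progenitors) and P450 genes of other families (3, 3 and 2). Ephx1, an epoxide hydrolase, was lower in male than in female progenitors (log2 male over female -0.81 ± 0.16, edgeR adjusted p = 0.0220).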

How the data were processed

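The authors deposited a table of raw counts per gene and library, and a table of CPM, which equals the counts scaled to a common total. The submitters' processing notes name cutadapt 3.0, STAR 2.7.9a, HTSeq 0.13.5, DESeq2 1.30.1 and the build mm10, with annotation release and strand setting not given in the sources used here. Per the labels' protocols, libraries were made from transcript 3′ ends of sorted cells. The 69 technical Paneth libraries were summed per animal, so 112 libraries gave 67 samples. Of the IDs, 127 had no symbol. Plain CPM set membership, and TMM-normalised CPM is printed.

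Counts were tested with edgeR 4.0.16 (R 4.3.3; quasi-likelihood, TMM, filterByExpr with a minimum count of 10), with Benjamini-Hochberg adjustment over all genes tested and a threshold of 0.05. Age, sex and their interaction were fitted within each population over groups of age and sex, and populations and age by population were fitted over all 67 samples. Errors after ± are SE of log2 differences, or SD where marked or where levels in CPM are given. The fits were tested on simulated data. Alternatives were DESeq2 1.42.0, limma 3.58.1 (voom), other scalings and filters, replicate blocks, subsets of animals and leaving out each sample. Named genes were members called with age or sex, the 5 of highest level and the 4 largest called differences in each direction per comparison of populations, a fixed set of 9 members, the 2 genes on each side of the 1 CPM limit and called genes of the lists, at most 4 a list and comparison; further members were named after their values were seen. The members and lists were chosen with earlier results of these data known.

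Replicate numbers did not pair young and aged samples: deviations of samples with the same number had a median correlation of 0.0275 for ISCs, -0.00812 for progenitors and 0.00356 for Paneth cells. Samples of 1 animal in different populations are paired by origin. Their deviations had a median correlation of 0.0751 for progenitors and ISCs, 0.0509 for Paneth cells and ISCs, and 0.049 for Paneth cells and progenitors. The main fits over all 67 samples did not include this pairing, and an alternative fit took the animal as a block.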

Additional observations from a re-analysis of the deposited data

Results flagged for a closer look

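In 1 of 16 groups examined, a sample stood far from the others of its group. Cyp2b10 was at 2.83 CPM in young female progenitor sample 3, well above the other young female progenitor samples. Chance alone marks about 1 in 20 such groups.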

How the results depend on the processing

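Over 2847 alternatives of the 41 results for single genes, 2789 kept their direction and side of the threshold, 51 no longer passed, 2 newly passed and 5 reversed. Most of these alternatives left out 1 sample in a comparison of populations, so the total says little about the age calls. In progenitors the age call of Cyp2d26 was lost in 12 of 20 fits without 1 sample and that of Cyp2b10 in 6 of 20. Those of Cyp4f14 in progenitors and Cyp2c65 in ISCs were kept in all such fits. The ISC age count of 1 became 0 with the replicate number as a block (Cyp2c65 then 0.71, edgeR adjusted p = 0.0873), also when animals of 26 and 27 months were left out and in females alone. The progenitor age count of 3 became 1 with limma-voom, 0 when animals of 26 and 27 months were left out and 0 in males alone. It was also 0 in females alone, where Cyp2b10 had too few counts to be tested, and ran from 1 to 4 without 1 sample. Under the replicate block Cyp2b10 also lost its call (edgeR adjusted p = 0.0689). The count of Paneth cells against progenitors, 11, became 17 without scaling factors. In that setting 433 of all genes were called higher and 10983 lower. Reversed were Cyp2c65 with age in Paneth cells of females alone (-0.46), and without scaling factors Cyp4f13 (-1.12 against ISCs, -0.85 against progenitors), Cyp3a25 (-0.18) and Cyp4f16 (-1.07) in Paneth cells; the cause was not tested. With the animal as a replicate block, Cyp3a25 in Paneth cells against ISCs did not pass (edgeR adjusted p = 0.0601). Leaving out 1 sample gave 13 calls in progenitors against ISCs, 11 to 13 in Paneth cells against ISCs and 10 to 12 in Paneth cells against progenitors. Genes of few counts, such as Cyp2b10 in progenitors, are limited by depth.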
